A study of Mus musculus with 45 samples.

Results

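The comparison described here is that of the lungs of 3 mice with 4T1 tumors (libraries 37, 38 and 39) with the lungs of 3 mice with 67NR tumors (libraries 13, 14 and 15), 6 of the 45 samples of the series. All of the animals were female Balb/c mice, and all of them, controls included, carried subcutaneous scaffolds of porous polycaprolactone, implanted at 7 to 8 weeks of age and 2 weeks before the tumor cells. Each tumor was started by injecting cells of a mouse mammary carcinoma line into a mammary fat pad, and lungs and other tissues were collected on day 14. The 4T1 line is metastatic, mainly to the lung, and the 67NR line, derived from the same original tumor, is nonmetastatic. The series also holds lungs of healthy control mice (libraries 4, 5 and 6) and of mice with the invasive, nonmetastatic line 4T07 (libraries 25, 26 and 27), which served here to estimate the spread between samples, and spleens and scaffolds of the same groups. Each degree of metastasis is represented by a single cell line, so that metastatic ability and other properties of the line cannot be told apart. RNA was read as tags from the 3' end of transcripts, and levels are given as counts scaled to a library total of 1000000 (CPM). Of 55367 gene symbols, 19852 had more than 10 counts over the 6 libraries and were tested.

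Tumors of the 4T1 line are known to release factors that drive the bone marrow to make granulocytes, the white cells that include neutrophils. Neutrophils and their precursors, also studied as myeloid-derived suppressor cells, are known to settle in the lungs before tumor cells grow there, a state called the pre-metastatic niche. Their granule proteins are made in order: myeloperoxidase, elastase and cathepsin G in early precursors, then lactoferrin, cathelicidin and lipocalin 2, and gelatinase with the surface receptors in the most mature cells.

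The 4T1 lungs held 6211830 to 7081417 counts and the 67NR lungs 5220992 to 6912278, and 3 counts in a library came to between 0.424 and 0.575 CPM. All 6 libraries held high levels of lung markers, such as the surfactant gene Sftpc at 7939 to 10265 CPM in 4T1 and 9137 to 11971 CPM in 67NR lungs. Markers of other tissues were uneven: the squamous epithelium genes Krt4 and Krt13 reached 20.6 to 61.5 CPM in 67NR lungs 14 and 15 and at most 0.15 CPM in the other 4 libraries, and heart muscle genes stood highest in 67NR lung 15. The libraries labelled 4T07 lung stood apart from the other lungs, with Sftpc at 1798 to 3620 CPM and the lymphoid precursor genes Rag1 and Dntt at 9.55 to 18.0 CPM. Tlx1, a gene of spleen stroma, stood at 11.1 to 14.6 CPM in them, against 0.434 to 1.72 CPM in 67NR and 0.6 to 0.966 CPM in 4T1 lungs. In 4T07 spleens Tlx1 stood at 11.9 to 16.7 CPM. Correlations of the libraries labelled 4T07 lung over 12090 genes on the log2(CPM + 1) scale were 0.711 to 0.814 with control lungs and 0.806 to 0.875 with control spleens. Without them the comparison called 1166 genes, 1105 of which were among the 1118 called with them.

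A gene was called when its fold change exceeded 2 and its adjusted p was below 0.10. By this rule 1118 genes (5.63% of those tested) differed between 4T1 and 67NR lungs. More genes were higher in 4T1 lungs, 707 (3.56%), than were lower, 411 (2.07%). These shares are the background for every count of list genes given below. The higher genes also moved further, with 157 of them and 65 of the lower genes past 8-fold. Over all genes tested the median log2 fold change was -0.02, and the 3 samples of each group did not overlap for 6296 genes (31.7%). Of the higher genes, 566 also had every 4T1 lung above every control lung. Of the lower genes, 125 had every 4T1 lung below every control lung, and 212 had every 67NR lung above every control lung. The count of lower genes moved most with 67NR lung 15. Without it, 136 genes were lower and 570 higher, and without both 67NR lungs 14 and 15, 71 were lower and 413 higher. Leaving out 4T1 lung 37 or 38 gave 250 or 243 lower genes. With library totals in place of TMM scaling the split was 603 higher and 634 lower, with the median of all genes at -0.14.

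Neutrophil genes led the higher side. Of 26 genes of mature and immature neutrophils tested, 24 rose and none fell, with a median log2 fold change of 5.17 against -0.02 over all genes tested. In bulk lung a larger number of neutrophils and more RNA per neutrophil cannot be told apart. Nothing in the labels ties a lung to another tissue of its mouse or to a batch, and p-values measure the spread between these lungs. Summed over the list, the level was 28248, 32724 and 14366 CPM in 4T1 lungs 37, 38 and 39, 1852, 1570.5 and 1644 CPM in 67NR lungs 13, 14 and 15, and 1745, 1889 and 1842 CPM in control lungs. The libraries labelled 4T07 lung, of a nonmetastatic line, summed to 32642.5, 33469 and 27719 CPM, so that a high level was not particular to libraries labelled 4T1. Given their Sftpc, Tlx1 and correlations with spleens above, the level in lungs of 4T07 mice cannot be read from them. The same limit applies to their sums for other lists below. Lung 39 was the lowest of the 4T1 lungs for 24 of the 26 genes, yet its sum was still above every 67NR and control lung. No single library, when left out, moved the count of list genes called by over 1.5 times. With at least 10 counts required in each library, a filter that removes genes near 0 in 67NR lungs, 14 were called.

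S100a8, a subunit of the alarmin calprotectin, stood at 12788, 13711 and 6044 CPM in the 4T1 lungs and at 91, 118 and 74.8 CPM in the 67NR lungs. All of the 4T1 lungs lay far above the 67NR lungs, and the control lungs, at 124, 127 and 103 CPM, lay with the latter. Its log2 fold change was 6.96 ± 0.32 (standard error), with an adjusted p of 1.57e-10. S100a9, the other subunit, rose by 6.24 ± 0.29 on the log2 scale (adjusted p = 1.57e-10), from 119.6 ± 5.45 CPM (SD, n = 3) in 67NR to 8303 ± 3288 CPM in 4T1 lungs. Ly6g, the surface antigen by which mouse neutrophils are sorted, was at 304, 375 and 93.4 CPM in 4T1 and 1.15, 0.975 and 2.6 CPM in 67NR lungs, without overlap (log2 fold change 7.41 ± 0.49, adjusted p = 9.57e-09). Cxcr2, the receptor through which neutrophils follow CXC chemokines, was at 193, 268 and 109 CPM against 8.24, 5.52 and 4.92 CPM (log2 fold change 5.07 ± 0.29, adjusted p = 2.52e-09). For each of these genes lung 39 was the lowest of the 4T1 lungs.

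Genes of the early granules rose together with those of the later ones. Mpo, which encodes myeloperoxidase, was at 48.8, 46 and 27.3 CPM in 4T1 and 0.766, 0.162 and 0.434 CPM in 67NR lungs (log2 fold change 6.58 ± 0.38, adjusted p = 2.52e-09). Ctsg, for cathepsin G, was at 15.6, 10.2 and 13.6 CPM against 0.383, 0 and 0 CPM. With 2 counts of Ctsg over all of the 67NR lungs, the ratio of the 2 groups was 119 (95% counting interval 32.6 to 989). Of the serine proteases of the same granules, Elane had 1 count in the 67NR lungs and a ratio of 103 (95% counting interval 18 to 4089), and Prtn3 rose by 5.03 on the log2 scale. Among genes of the later granules, Ngp was at 547, 618 and 166 CPM against 2.11, 1.95 and 2.03 CPM (log2 fold change 7.88 ± 0.48, adjusted p = 3.31e-09). Camp, which encodes the antimicrobial peptide cathelicidin, was at 181, 171 and 69.3 CPM against 1.72, 1.3 and 0.434 CPM (log2 fold change 7.09 ± 0.43, adjusted p = 3.31e-09). Ltf, for lactoferrin, rose by 3.37 ± 0.45 on the log2 scale from a 67NR level of 19.4 ± 6.77 CPM (SD, n = 3). Mmp8 and Mmp9, the neutrophil collagenase and gelatinase, had log2 fold changes of 5.29 and 4.06. Both list genes that did not pass were Hp, for haptoglobin, at 0.71 and Chil1 at 0.18. In the plot of the leading genes by library, the 4T1 lungs are separated from the 67NR and control lungs for all 12 higher genes.

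**Figure D1:**
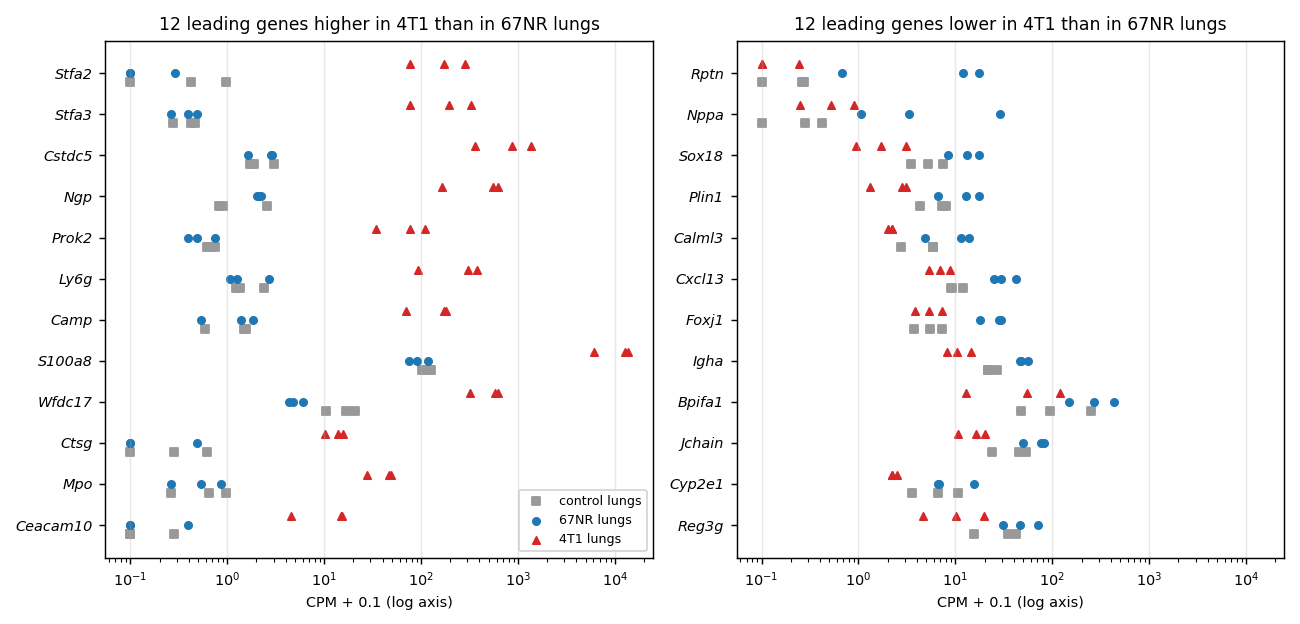
CPM + 0.1 (log axis) of the 12 leading genes higher (left) and the 12 lower (right) in 4T1 than in 67NR lungs, 1 point per library, with control lungs for reference. The 4T1 and 67NR points do not overlap in either panel, because the rule for naming these genes required it, and S100a8 spans 74.8 to 118 CPM in 67NR and 6044 to 13711 CPM in 4T1 lungs.

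The leading genes with the largest fold changes were stefin A genes, a tandem cluster of cysteine protease inhibitors on chromosome 16, several copies of which are made by neutrophils. Of 10 genes of the stefin A cluster and related inhibitors tested, 10 rose, with a median log2 fold change of 6.48. Stfa1, Stfa2 and Cstdc6, with 0 or 1 count in the 67NR lungs, passed the count filter through the 4T1 lungs alone. Such genes could only come out higher, which favors a high share. The same holds for genes of other lists with so few counts in 1 group. Stfa2 was at 172, 281 and 77.5 CPM in the 4T1 lungs and at 0.192, 0 and 0 CPM in the 67NR lungs, where 1 count was seen in all. The ratio of the 2 groups was 3276 (95% counting interval 588 to 129436). Stfa3 was at 194, 324 and 76 CPM against 0.383, 0.162 and 0.289 CPM (log2 fold change 9.51 ± 0.58, adjusted p = 3.31e-09). Cstdc5 was at 858, 1350.0 and 357 CPM against 1.53, 2.76 and 2.75 CPM (log2 fold change 8.59 ± 0.45, adjusted p = 7.57e-10). Stfa2l1 and Cstdc4 rose by 5.92 and 6.05 on the log2 scale. Stfa1, without a count in the 67NR lungs, was at least 8.25-fold higher in 4T1 lungs against a floor of 3 counts over the group, and Cstdc6, with 1 count there, had a ratio of 109 (95% counting interval 19.2 to 4342). The copies are alike in sequence, so that the split of reads among them is uncertain. Lung 39 was the lowest of the 4T1 lungs for every member of the list. The list summed to 3033, 4076 and 1448 CPM in 4T1 lungs 37, 38 and 39. In the libraries labelled 4T07 lung it summed to 1722, 1641 and 1404 CPM, and in 67NR lungs to 31.8, 67.9 and 65.7 CPM.

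The likeness extended to the promoters. From 100 bases before to 50 after the start of transcription (RefSeq, GRCm38.p6), the promoters of 6 stefin genes were 59.9% to 85.7% identical in pairwise global alignments, and all of them shared ACCTTTAAAACCC (13 bases, in capitals here, 1 of 2 shared runs of this length, none being longer), held by 0.0296% (8) of 27025 mouse promoters of that length on either strand. The run was taken from these 6 promoters, so that 6 of the 8 holders were fixed in advance. The others were Csta3 and Gm7260. The 4 promoters shown belong to Stfa2 (chr16:36408314-36408463, minus strand), Stfa3 (chr16:36455343-36455492, minus strand), Cstdc5 (chr16:36367521-36367670, minus strand) and Stfa2l1 (chr16:36156711-36156860, plus strand).
Stfa2: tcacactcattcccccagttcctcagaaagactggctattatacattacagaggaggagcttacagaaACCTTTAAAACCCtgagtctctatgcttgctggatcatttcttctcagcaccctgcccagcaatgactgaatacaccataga
Stfa3: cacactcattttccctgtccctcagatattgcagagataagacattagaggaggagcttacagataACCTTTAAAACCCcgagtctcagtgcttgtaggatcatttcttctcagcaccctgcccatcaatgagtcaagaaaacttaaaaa
Cstdc5: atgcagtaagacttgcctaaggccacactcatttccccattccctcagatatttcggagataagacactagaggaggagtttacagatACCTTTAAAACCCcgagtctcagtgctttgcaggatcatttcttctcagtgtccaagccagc
Stfa2l1: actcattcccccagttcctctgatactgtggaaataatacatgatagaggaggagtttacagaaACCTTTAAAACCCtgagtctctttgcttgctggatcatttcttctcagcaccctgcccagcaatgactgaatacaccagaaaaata
For S100a8 (chr3:90668971-90669120, plus strand) and S100a9 (chr3:90695672-90695821, minus strand), the highest genes of the neutrophil list in 4T1 lungs, the capitals mark TATAAA, the core letters of a TATA box, which 7.28% of the promoters held on either strand.
S100a8: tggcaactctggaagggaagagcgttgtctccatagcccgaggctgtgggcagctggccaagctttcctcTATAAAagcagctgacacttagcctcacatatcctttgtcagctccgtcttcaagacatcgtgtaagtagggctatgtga
S100a9: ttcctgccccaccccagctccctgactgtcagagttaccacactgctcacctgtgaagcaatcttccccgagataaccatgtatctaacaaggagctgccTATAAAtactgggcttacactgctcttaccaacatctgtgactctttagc
In S100a8 these letters begin 30 bases before the start, and in S100a9 directly at the annotated start. A match of letters is a description of the sequence only.

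Other leading genes included further secreted and surface proteins of neutrophils. Wfdc17, a small protease inhibitor, was at 584, 620.1 and 319 CPM in 4T1 and 4.21, 6.01 and 4.63 CPM in 67NR lungs (log2 fold change 6.79 ± 0.32, adjusted p = 1.57e-10). Here the control lungs, at 16.7, 20.9 and 10.4 CPM, lay between the 2 tumor groups. Prok2, for the chemotactic and angiogenic peptide Bv8, was at 77.4, 110.3 and 34.3 CPM against 0.383, 0.65 and 0.289 CPM (log2 fold change 7.45 ± 0.54, adjusted p = 3.41e-08). Ceacam10 was at 15.3, 14.8 and 4.5 CPM against 2 counts in all of the 67NR lungs, a ratio of 105 (95% counting interval 28.8 to 875).

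**Figure D2:**
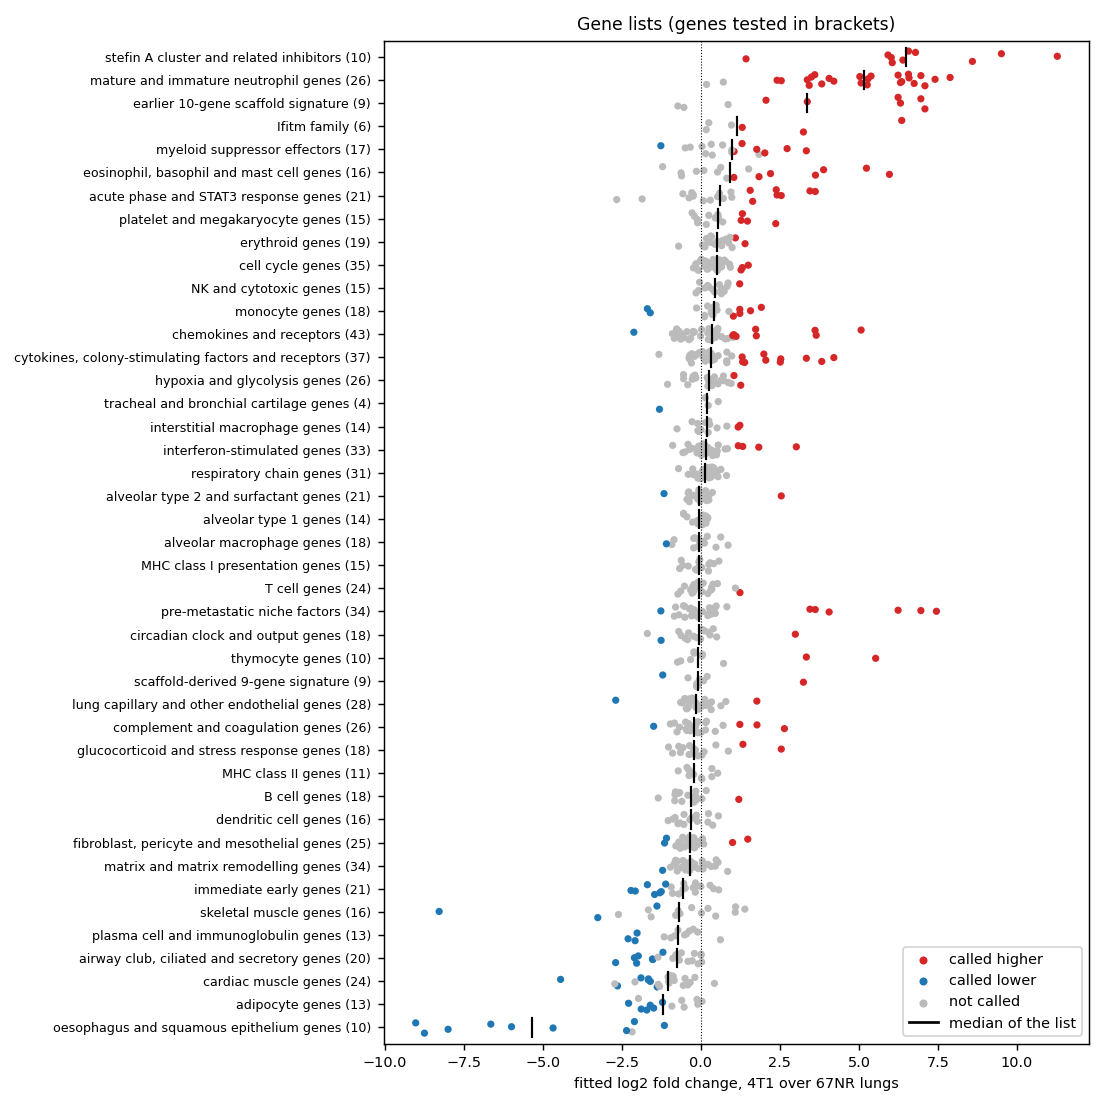
Fitted log2 fold change (4T1 over 67NR lungs) of each tested member of the 43 gene lists, 1 point per gene, coloured by whether it passed the test, with a bar at the median of the list. The stefin and neutrophil lists lie furthest to the right, with medians of 6.48 and 5.17, and the squamous epithelium list furthest to the left, at -5.34, or -4.34 with genes lacking counts in the 4T1 lungs set to their bounds.

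Among effectors of myeloid suppressor cells, 6 of 17 tested rose and 1 fell. Il1b, for interleukin 1β, was at 275, 303 and 214 CPM in 4T1 and 24.1, 33.1 and 27.6 CPM in 67NR lungs (log2 fold change 3.34 ± 0.20, adjusted p = 2.69e-09). Ncf4 and Ncf1, subunits of the phagocyte oxidase, rose by 2.73 and 1.77 on the log2 scale, and Cd84 and Vsir, surface receptors of the immunoglobulin superfamily, by 2.02 and 1.30. The enzymes most used to define suppression did not pass: Arg1 had a log2 fold change of 0.36 ± 0.47 and Nos2 of -0.50 ± 0.39. Ptgs2, for cyclooxygenase 2, fell by 1.27 on the log2 scale, a call lost without 4T1 lung 37 or 38 or without 67NR lung 15.

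Monocyte genes moved less. Of 18 tested, 5 rose and 2 fell, with a median of 0.40, and without 4T1 lung 38 the higher count was 3. Ly6c2, the antigen of inflammatory monocytes, was at 147, 169.6 and 79 CPM in 4T1 and 54.4, 42.7 and 48 CPM in 67NR lungs (log2 fold change 1.57 ± 0.23, adjusted p = 1.45e-04). Of the macrophage lists, 0 of 18 alveolar genes rose and 1 fell (Ctsk, at -1.09, not called without 4T1 lung 38), and 2 of 14 interstitial genes rose, F13a1 and Cd68, of which 1 was called without 4T1 lung 38. None of the 16 dendritic cell genes passed, with log2 fold changes from -1.04 to 0.55, and 1 was called lower without 4T1 lung 39 or 67NR lung 13.

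Genes of other granulocytes were higher as well. Of 16 genes of eosinophils, basophils and mast cells tested, 7 rose, and 4 did without both 67NR lungs 14 and 15. Prg2, for the eosinophil granule major basic protein, was at 46.2, 19.6 and 34 CPM in 4T1 and 1.72, 0.162 and 1.01 CPM in 67NR lungs (log2 fold change 5.24 ± 0.42, adjusted p = 1.21e-07). Epx, for eosinophil peroxidase, was at 6.28, 2.68 and 4.5 CPM against 1 count in all of the 67NR lungs, a ratio of 80.6 (95% counting interval 14.1 to 3220.1). Mcpt8, a protease of basophils, was at 8.69, 6.92 and 3.15 CPM against 0.575, 0.487 and 0.289 CPM (log2 fold change 3.88 ± 0.48, adjusted p = 2.25e-05). The order of the 4T1 lungs was another one here, with lung 37 the highest for all 3 genes and lung 38 the lowest for Prg2 and Epx. The mast cell genes Cpa3, Tpsb2 and Mcpt4 were not called, at -0.61, -1.21 and 0.09.

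Of 15 platelet and megakaryocyte genes, 4 rose, against 3.56% of all genes tested. F5, for coagulation factor V, was at 66.8, 102 and 30.1 CPM against 12.8, 15.1 and 14 CPM (log2 fold change 2.37 ± 0.31, adjusted p = 3.84e-05), and Gp5 and Gp6, platelet surface glycoproteins, rose by 1.47 and 1.27 on the log2 scale. The platelet chemokine genes Pf4 and Ppbp were not called, at 0.25 and 0.54. Of 19 erythroid genes 2 rose, Gata1 and Slc4a1, and leaving out 4T1 lung 37 or either of the 67NR lungs 14 and 15 left none, while leaving out 67NR lung 13 gave 5.

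Receptors for myeloid growth factors and interleukin 1 were higher in 4T1 lungs. Of 37 genes for cytokines, colony-stimulating factors and their receptors tested, 10 rose, 7 of them receptors, and none fell. Csf3r, the receptor for granulocyte colony-stimulating factor, was at 60.5, 87.4 and 35.2 CPM in 4T1 and 3.64, 5.2 and 5.06 CPM in 67NR lungs (log2 fold change 3.82 ± 0.30, adjusted p = 1.06e-07). Il1r2, the decoy receptor for interleukin 1, was at 16.4, 24.1 and 11.1 CPM against 1.92, 0.65 and 0.579 CPM (log2 fold change 4.21 ± 0.40, adjusted p = 8.66e-07). Il18rap rose by 2.53, Csf2rb by 2.51 and Il17ra by 2.05 on the log2 scale. The ligands called were Il1b, Il1rn and Osm. Csf1, Il33, Il34 and Kitl had log2 fold changes between -0.30 and 0.06, none of them called.

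Among chemokines and their receptors, receptors also made up most of the higher genes. Of 43 genes tested 9 rose, 6 of them receptors, and 1 fell, and with library totals in place of TMM scaling 5 rose. Ccr1, a receptor for CC chemokines, was at 58.1, 76.8 and 37.6 CPM in 4T1 and 4.21, 6.01 and 4.63 CPM in 67NR lungs (log2 fold change 3.65 ± 0.26, adjusted p = 2.83e-08), and Cxcr1 rose by 3.61 on the log2 scale. The ligands of Cxcr2 were not called: Cxcl1 had a log2 fold change of 0.22 ± 0.35, Cxcl2 of -0.70 ± 0.44 and Cxcl5 of 0.51 ± 0.36. Ccl6 was at 614, 507 and 589 CPM against 312, 288 and 257 CPM, a log2 fold change of 1.11 ± 0.16, but the control lungs, at 729.7, 719 and 503 CPM, overlapped with the 4T1 lungs. Cxcl13, the chemokine that draws B cells into follicles, was the gene that fell, at 6.76, 5.22 and 8.69 CPM in 4T1 and 25.1, 29.7 and 42.4 CPM in 67NR lungs (log2 fold change -2.12 ± 0.23, adjusted p = 4.68e-06). Its control levels, 8.89, 11.9 and 9.06 CPM, lay just above the 4T1 lungs, and the 67NR lungs were the ones apart.

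Of 34 genes listed as pre-metastatic niche factors, 6 rose, namely S100a8, S100a9, Prok2, Mmp9, Saa3 and Saa1 (1 count in the 67NR lungs), and Ptgs2 fell. Saa3, a serum amyloid A gene made in tissues, was at 72.3, 114 and 34.2 CPM in 4T1 and 5.17, 8.45 and 8.1 CPM in 67NR lungs (log2 fold change 3.45 ± 0.39, adjusted p = 6.81e-06). The matrix and vascular factors of the list did not pass: Lox had a log2 fold change of 0.45 ± 0.19, Fn1 of 0.33 ± 0.15, Postn of 0.05 ± 0.17, Tnc of -0.80 ± 0.25 and Vegfa of -0.55 ± 0.16. The list of niche factors summed to 24833, 28233 and 13950 CPM in 4T1 lungs 37, 38 and 39. In the libraries labelled 4T07 lung it summed to 25708, 25641 and 22336 CPM. Among 21 acute phase and STAT3 response genes 7 rose. Lcn2, for lipocalin 2, was at 262, 298 and 113 CPM against 40.4, 45.5 and 39.9 CPM (log2 fold change 2.54 ± 0.26, adjusted p = 2.36e-06), and Socs3, the feedback inhibitor of STAT3, at 38.6, 46.9 and 31.6 CPM against 11.9, 17.5 and 13.6 CPM (log2 fold change 1.56 ± 0.19, adjusted p = 1.69e-05). Of 26 complement and coagulation genes 3 rose, led by C5ar1, the anaphylatoxin receptor, at 2.64 ± 0.35 on the log2 scale, and 1 fell, Cfd, for the complement factor adipsin of fat cells. The lower count was 3 without 4T1 lung 39, 2 without 67NR lung 14 and 0 without 67NR lung 15.

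The Ifitm genes, which encode interferon-induced membrane proteins, divided within the family. Of 6 tested 3 rose, against 3.56% of all genes tested. Ifitm6 was at 478, 627 and 136 CPM in 4T1 and 4.6, 5.52 and 6.22 CPM in 67NR lungs (log2 fold change 6.35 ± 0.45, adjusted p = 2.67e-08). Ifitm1 rose by 3.24 and Ifitm2 by 1.31 on the log2 scale, and Ifitm3, at 0.97 ± 0.25, did not pass the fold threshold and its samples overlapped. Other interferon-stimulated genes mostly did not pass: 4 of 33 rose, Oas3, Oas2, Oasl1 and Rsad2, with a median of 0.15, and 1 did without both 67NR lungs 14 and 15. Oas3, a sensor of double-stranded RNA, was at 22.2, 27.8 and 14.1 CPM against 2.87, 3.25 and 2.46 CPM (log2 fold change 3.02 ± 0.33, adjusted p = 4.58e-06). Ifit1, Irf7 and Isg15 had log2 fold changes of 0.02, 0.33 and 0.77 and were not called. None of 11 class II and none of 15 class I antigen presentation genes passed, with log2 fold changes from -0.72 to 0.57.

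Few lymphocyte genes passed the test. Of 24 T cell genes 1 rose (Cd3d), of 15 natural killer and cytotoxic genes 1 rose (Nkg7), and of 18 B cell genes 1 rose (Cd37). Over all genes tested 3.56% rose, and counts of 1 in lists this short are not told apart from that share. Higher without overlap were 6 of the 15 natural killer and cytotoxic, 2 of the 24 T cell and 1 of the 18 B cell genes. Lower without overlap were 0, 2 and 8 of these. Over all 19852 genes tested, 2014 were higher without overlap. Cd3d was at 13.8, 9.04 and 8.39 CPM against 4.41, 4.06 and 5.79 CPM, with control lungs at 9.06, 11 and 6.47 CPM, and was not called without 4T1 lung 37. Nkg7 was at 7.73, 8.05 and 6.9 CPM against 3.45, 3.25 and 3.76 CPM, with control lungs at 8.02, 5.41 and 5.18 CPM. In both cases the 67NR lungs lay below the control lungs, which overlapped with the 4T1 lungs. The B cell antigens Ms4a1 and Ighd, at -0.68 and -0.78, were lower in every 4T1 than in every 67NR lung and did not reach the fold threshold. As many as 4282 of the 19852 genes tested were lower in this way. Without 67NR lung 13, 1 B cell gene was called lower.

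Antibody genes stood on the lower side. Of 13 plasma cell and immunoglobulin genes, 3 fell, Igha, Jchain and Ighg2b, and the median was -0.73. Igha, the heavy chain of immunoglobulin A, the antibody of mucosal surfaces, was at 14.5, 8.05 and 10.2 CPM in 4T1 and 47.7, 46.3 and 56 CPM in 67NR lungs (log2 fold change -2.08 ± 0.21, adjusted p = 1.46e-06). Jchain, which joins immunoglobulin A into dimers, was at 20.1, 10.6 and 16.3 CPM against 81.8, 49.5 and 75.4 CPM (log2 fold change -2.02 ± 0.27, adjusted p = 5.82e-05). The control lungs lay between the groups for Igha, at 21.6, 26.7 and 21.7 CPM, and above the 4T1 lungs for Jchain, at 45.7, 53.2 and 23.6 CPM.

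Airway genes stood on the lower side. Of 20 genes of club, ciliated and secretory cells, 7 fell and none rose. The count was 4 without 67NR lung 15 and 4 with DESeq2. Foxj1, the transcription factor that sets up motile cilia, was at 7.24, 5.22 and 3.75 CPM in 4T1 and 17.6, 29.4 and 28.4 CPM in 67NR lungs (log2 fold change -2.11 ± 0.33, adjusted p = 3.67e-04). Control lungs, at 3.66, 5.41 and 7.12 CPM, matched the 4T1 lungs in range, and the 67NR lungs stood alone above both. Dnah9, an axonemal dynein heavy chain, was at 3.54, 5.65 and 4.2 CPM against 18.2, 10.4 and 14 CPM (log2 fold change -1.53 ± 0.36, adjusted p = 0.0104), and Dnah5 had -1.52, a call lost without 4T1 lung 37. Of the secreted products, Reg3g, an antibacterial lectin, was at 9.98, 19.6 and 4.5 CPM against 71.4, 30.7 and 46.3 CPM (log2 fold change -1.98 ± 0.50, adjusted p = 0.0169). Bpifa1, a secreted protein of the upper airways, was at 54.4, 121 and 12.9 CPM against 429, 149.6 and 267 CPM with control lungs at 47.2, 94.5 and 253 CPM, and its call (-2.04, adjusted p = 0.0755) was lost without 4T1 lung 37 or 39 or without 67NR lung 13 or 15. The club cell genes Scgb1a1 and Cyp2f2 were not called, at 0.00 and -0.68, and the summed airway level, 26629.7, 22107 and 20993 CPM in 4T1 and 26443, 27719 and 27185 CPM in 67NR lungs, overlapped.

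**Figure D3:**
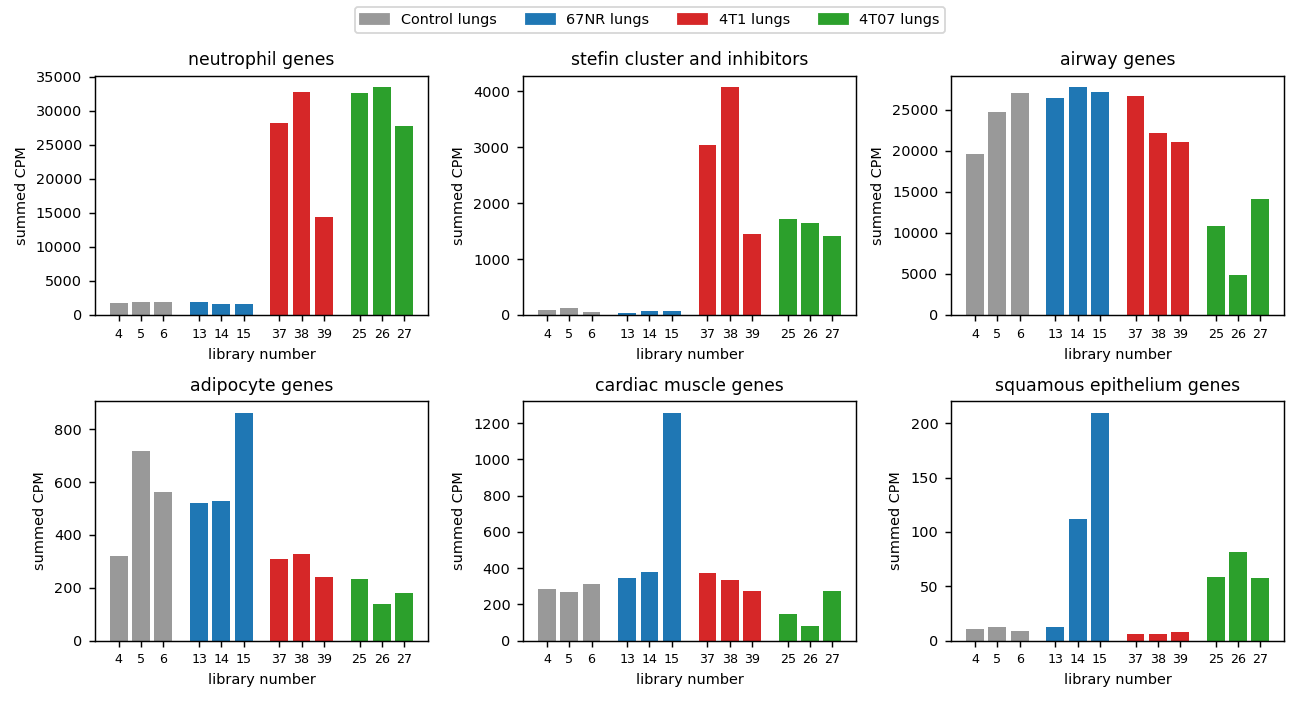
Summed CPM of 6 gene lists in each of the 12 lung libraries (bars, axes from 0, library numbers below), grouped as control, 67NR, 4T1 and 4T07. The neutrophil list reaches 14366 to 32724 CPM in 4T1 lungs and 27719 to 33469 CPM in the libraries labelled 4T07 lung. The cardiac and squamous lists are raised in 67NR lung 15, and the squamous list also in 67NR lung 14.

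Several genes at the top of the lower side belonged to tissues other than lung, and their levels followed single libraries. Of 10 squamous epithelium genes 9 were called lower, with a median log2 fold change of -5.34 (-4.34 with genes lacking counts in the 4T1 lungs at their bounds), and the summed level was 12.8, 112 and 209.6 CPM in 67NR lungs 13, 14 and 15 and 6.28, 5.65 and 7.8 CPM in 4T1 lungs. Rptn, an epidermal matrix protein, had the largest fold change of the lower genes without overlap of the samples, at 0.575, 11.9 and 17.5 CPM in 67NR lungs, with 1 count in all of the 4T1 lungs, a ratio of 215 (95% counting interval 38.1 to 8536). With DESeq2, 4 of the squamous genes were called, and without both 67NR lungs 14 and 15, 0. Of 24 cardiac muscle genes 7 were called lower, with a sum of 346, 376 and 1257 CPM in 67NR and 371, 332 and 276 CPM in 4T1 lungs. The count was 1 to 3 when any one 4T1 lung was left out, 13 without 67NR lung 13, 11 without 67NR lung 14 and 0 without 67NR lung 15. Nppa, for atrial natriuretic peptide, was at 0.958, 3.25 and 28.5 CPM against 0.805, 0.424 and 0.15 CPM, and its log2 fold change of -4.44 (adjusted p = 0.0169) was no longer called without 67NR lung 15. Of 16 skeletal muscle genes 3 were called lower (Myh8, Acta1 and Tnnt3), with 0.958, 20.6 and 72 CPM of Acta1, the actin of skeletal muscle, in the 67NR lungs. Without 67NR lung 13 there were 6, and without 67NR lung 15 or 4T1 lung 38 there was 1. The part of these tissues in the differences was not tested.

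Adipocyte genes stood on the lower side as well. Of 13 tested 6 fell, with a median of -1.21, and the sum was 310.4, 328 and 239.6 CPM in 4T1, 519.6, 528 and 862 CPM in 67NR and 322, 719 and 562 CPM in control lungs. Plin1, which coats the fat droplet of adipocytes, was at 2.74, 2.97 and 1.2 CPM against 6.51, 12.8 and 17.2 CPM (log2 fold change -2.29 ± 0.42, adjusted p = 0.00169). Adipoq, for adiponectin, was at 5.47, 6.78 and 4.65 CPM against 12.8, 17.2 and 29.9 CPM (log2 fold change -1.71 ± 0.37, adjusted p = 0.0069). Without both 67NR lungs 14 and 15, 1 of the list was called. Cyp2e1, an ethanol-metabolizing enzyme of liver and fat, was at 2.41, 2.12 and 2.1 CPM against 6.51, 6.66 and 15.3 CPM (log2 fold change -1.99 ± 0.51, adjusted p = 0.0191), a call lost without 67NR lung 15. The share of adipose tissue in these samples was not tested.

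The other leading lower genes were Sox18 and Calml3. Sox18, a transcription factor of blood and lymph vessel endothelium, was at 1.61, 0.847 and 3.0 CPM in 4T1 and 17.2, 8.28 and 13.2 CPM in 67NR lungs (log2 fold change -2.70 ± 0.42, adjusted p = 3.41e-04), with control lungs between them at 5.06, 7.39 and 3.4 CPM. It was the only one of 28 endothelial genes to fall, and Selp, for P-selectin, on which leukocytes roll, was the only one to rise, at 16.6, 25.1 and 10.5 CPM against 5.75, 3.9 and 6.94 CPM (log2 fold change 1.77 ± 0.30, adjusted p = 6.84e-04). Calml3, a calmodulin-like protein of epithelia, was at 1.93, 2.12 and 2.1 CPM against 4.79, 11.4 and 13.6 CPM (log2 fold change -2.16 ± 0.42, adjusted p = 0.0026).

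Few genes of the alveolar framework passed the test, but many were lower in 4T1 lungs by less than 2-fold. Lower without overlap were 18 of 34 matrix, 14 of 28 endothelial and 11 of 25 fibroblast, pericyte and mesothelial genes. Higher without overlap were 1, 3 and 2 of these. Over all 19852 genes tested, 4282 were lower and 2014 higher without overlap. Overlap was judged on CPM without TMM scaling, under which the median log2 fold change of all genes was -0.14. Counts without overlap therefore lean toward the lower side. None of 14 alveolar type 1 genes passed, with log2 fold changes from -0.55 to 0.22. Of 21 alveolar type 2 and surfactant genes Lcn2 rose and Nkx2-1, the transcription factor of lung epithelium, fell, at 17.2, 14.1 and 19.6 CPM against 29.7, 46 and 48 CPM (log2 fold change -1.17 ± 0.26, adjusted p = 0.00782). Of 25 fibroblast, pericyte and mesothelial genes 2 rose and 2 fell, and 1 rose without 4T1 lung 37 or 67NR lung 13 or 15, 1 fell without 4T1 lung 37 or 38 and none fell without 67NR lung 15. Of 34 matrix genes 1 fell, Col15a1, for a basement membrane collagen, at -1.21. The count was 2 without 4T1 lung 37 or 39 or 67NR lung 14 and 0 without 67NR lung 15. Pi16, a marker of adventitial fibroblasts, was at 68.6, 101 and 40.6 CPM against 25.3, 20.6 and 35.9 CPM (log2 fold change 1.48 ± 0.25, adjusted p = 6.50e-04). Eln, for elastin, was lower in every 4T1 lung at -0.96 ± 0.20 and did not reach the fold threshold.

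Genes of cell state differed in a few members. Of 21 immediate early genes, which respond within minutes to stimuli including tissue handling, 7 were called lower. The count was 2 without 4T1 lung 37 or 67NR lung 14, 4 without 4T1 lung 39 or 67NR lung 15 and 3 with DESeq2, and none without both 67NR lungs 14 and 15. Nr4a1 was at 4.67, 5.79 and 7.35 CPM in 4T1, 12.4, 27.9 and 22 CPM in 67NR and 6.1, 12.8 and 14.9 CPM in control lungs. Of 18 clock genes Arntl, the core activator of the circadian clock, fell, at 7.41, 7.48 and 9.14 CPM against 20.5, 16.2 and 25.8 CPM (log2 fold change -1.26 ± 0.20, adjusted p = 4.28e-04), with control lungs at 19.7, 15.5 and 15.2 CPM. Nfil3, a clock-controlled repressor, rose by 2.99 ± 0.38 on the log2 scale. The hour of collection is not given in the labels, and its part in the clock gene levels was not tested.

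Of 35 cell cycle genes 3 rose, Hmgb2, Birc5 and Cdc6, with 5 called without 67NR lung 13. For this and the next lists, 3.56% of all genes tested rose and 2.07% fell. Birc5, for the mitotic protein survivin, was at 76.5, 59.2 and 48 CPM against 35.8, 27.6 and 19.7 CPM (log2 fold change 1.27 ± 0.25, adjusted p = 0.00302). Of 26 genes of hypoxia and glycolysis 2 rose, among them the glucose transporter gene Slc2a1 at 1.05, which was not called without 4T1 lung 38 or 67NR lung 13. The count was 0 without 4T1 lung 38, 4 without 4T1 lung 39 and 1 without 4T1 lung 37 or 67NR lung 13 or 15. Of 18 glucocorticoid response genes 2 rose, Lcn2 and Zbtb16, and without 67NR lung 14 only 1 was called. None of 31 respiratory chain genes passed, and 1 was called lower without 4T1 lung 39. Of 10 thymocyte genes Rag1 and Dntt, of the machinery that joins antigen receptor genes, rose. Dntt was at 1.13, 0.565 and 1.2 CPM in 4T1 lungs without a count in the 67NR lungs, at least 5.80-fold higher against a floor of 3 counts over the group, and Rag1, with 1 count there, had a ratio of 12.8 (95% counting interval 1.95 to 542). Without 4T1 lung 39 or 67NR lung 14, 1 of them was called. Of 4 tracheal cartilage genes tested 1 fell, Chad, at -1.31, not called without 4T1 lung 37 or 39 or without 67NR lung 14 or 15.

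The scaffold-derived signature of 9 genes was chosen on scaffolds of this series, other tissues of the same experiment, and the paper states that PCR narrowed it further. Taken gene by gene, 1 of the 9 was called higher and 1 lower in the lungs. The paper instead used the 9 genes jointly, in a principal component plot, and reports that they set the 4T1 lungs apart from the other lungs. That joint separation was not tested here, and calls of single genes do not measure it. Ifitm1 was at 487, 596 and 213 CPM in 4T1, 46, 48.1 and 54.7 CPM in 67NR and 46.7, 73.6 and 64.6 CPM in control lungs (log2 fold change 3.24 ± 0.28, adjusted p = 3.15e-07). Spon2, for the secreted matrix protein spondin 2, was at 8.21, 5.93 and 6.3 CPM, 17.4, 14.9 and 18.8 CPM and 18.8, 16.8 and 14.4 CPM, respectively (log2 fold change -1.21 ± 0.24, adjusted p = 0.0029). Slc1a3, a glutamate transporter, had a log2 fold change of -0.41 ± 0.13 without overlap of the samples and did not reach the fold threshold. In all, 4282 of 19852 genes tested were lower without overlap. The remaining genes, Dhx9, Dusp12, Fhl1, Ndufs1, Pja2 and Soga1, had log2 fold changes from -0.14 to 0.20, with adjusted p-values from 0.393 to 0.856. Of an earlier scaffold signature, 6 of 9 genes tested rose, all of them neutrophil genes: S100a8, S100a9, Camp, Ltf, Elane and Pglyrp1. That earlier signature summed to 22363, 25582 and 11042 CPM in 4T1 lungs 37, 38 and 39. In the libraries labelled 4T07 lung it summed to 25352, 25689 and 21455.5 CPM.

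Few counts came from genes chosen for being high in tumors and nearly absent from control lungs. The 12 genes with at least 20 CPM on average in the 4T1 tumors and at most 1 count in any control lung, 5 of them granzyme genes of cytotoxic cells, summed to 2.41, 2.26 and 2.10 CPM in 4T1 lungs 37, 38 and 39, to 0.575, 1.62 and 0.723 CPM in 67NR lungs and to 0.174, 0.361 and 0.324 CPM in control lungs, where the rule kept them low. The means were 2.26 ± 0.158 and 0.974 ± 0.568 CPM (SD, n = 3; exact two-sided permutation test, p = 0.1, the smallest that 3 against 3 allows), against 564.3 CPM in the 4T1 tumors. Only 1 of the 12 genes had enough counts to be tested, and it was not called. In the libraries labelled 4T07 lung, with the limit given above, these 12 genes summed to 2.96, 2.06 and 2.17 CPM, as high as in 4T1 lungs. The 17 genes chosen in the same way from 67NR tumors summed to 6.99 ± 5.36 CPM in 4T1 and 4.49 ± 3.73 CPM in 67NR lungs (exact two-sided permutation test, p = 0.6). They summed to 114.7, 92.5 and 48.8 CPM in the libraries labelled 4T07 lung.

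The same 2 tumor lines were compared in the spleens and scaffolds of their mice, and the difference between the lung and the other tissue was tested for each gene. Of 17202 genes with counts in both, 21.8% differed in their 4T1 against 67NR change between lungs and spleens, and of 17859 genes 4.83% did between lungs and scaffolds. The scaffold figure, 863 genes, was 481, 551 and 442 without 4T1 lung 37, 4T1 lung 38 and 67NR lung 15, and 1345, 441 and 463 without 4T1 scaffold 34, 4T1 scaffold 35 and 67NR scaffold 10. All 12 leading higher genes were measured in both tissues, and 3 of them differed from spleens and 8 from scaffolds. They were chosen for large fold changes in lungs, which favors a larger change there, so that the direction of these differences is a description only.

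In spleens all 26 neutrophil genes and all 10 stefin list genes were higher in 4T1 than in 67NR mice, against 11.7% of the genes in that fit. S100a8 reached 14201 ± 6217 CPM in 4T1 and 521 ± 80.2 CPM (SD, n = 3) in 67NR spleens, a log2 fold change of 5.12, and its change was larger in lungs by 1.78 ± 0.44 (adjusted p = 0.00494). Ly6g, at 232 ± 115 and 13.1 ± 2.02 CPM in spleens, differed by 2.85 ± 0.68 (adjusted p = 0.00391), and Ngp by 2.66 ± 0.66 (adjusted p = 0.0048). Of the 26 neutrophil genes 7 had a larger change in lungs, Cxcr2, Mmp8, Il1r2, S100a8, S100a9, Ly6g and Ngp, and 6 a larger change in spleens, Lcn2, Ltf, Cd177, Lrg1, Hp and Chil1. Lcn2 had a log2 fold change of 5.73 in spleens and differed by -3.24 ± 0.49 (adjusted p = 8.05e-05). None of the 10 stefin list genes differed past the thresholds, and for Stfa3, with 1.92 ± 1.65, the error was nearly as large as the difference. Of the leading lower genes 5 were measured in spleens, and Sox18, Plin1 and Jchain differed. The log2 fold changes in spleens were 0.19 for Sox18 and 0.63 for Plin1, neither of them called there. Plin1 was near the floor, at 0.457 to 3.18 CPM in 4T1 and 0.224 to 2.51 CPM in 67NR spleens.

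In scaffolds 10 of the 26 neutrophil genes and 2 of 8 stefin list genes were higher in 4T1 mice, against 0.263% of the genes in that fit. S100a8 was at 1244 ± 326 CPM in 4T1 and 540.3 ± 39.8 CPM in 67NR scaffolds, a log2 fold change of 1.16 that did not pass there, and the change was larger in lungs by 5.81 ± 0.72 (adjusted p = 2.44e-05). Wfdc17, at 199 ± 28.8 and 255 ± 91.9 CPM, had -0.40 in scaffolds and differed by 7.20 ± 0.44 (adjusted p = 3.08e-10). Of the neutrophil list 14 of 26 genes had a larger change in lungs and none in scaffolds, and of the stefin list 7 of 8. The early granule genes Mpo and Ctsg, at 22.4 ± 24.3 and 10.5 ± 6.6 CPM in 4T1 scaffolds, had log2 fold changes of 4.49 and 4.45 there, and their differences from lungs, 2.10 ± 1.78 and 2.30 ± 2.05, did not pass. Il1b had -0.55 in scaffolds, which did not pass, and differed by 3.89 ± 0.75 (adjusted p = 0.00311). Igha, which fell in scaffolds too, had a difference of -0.08 ± 0.41, which did not pass. Of the 8 leading lower genes measured in scaffolds 5 differed, Sox18, Plin1, Cxcl13, Cyp2e1 and Reg3g, none of which was called within the scaffolds.

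**Figure D4:**
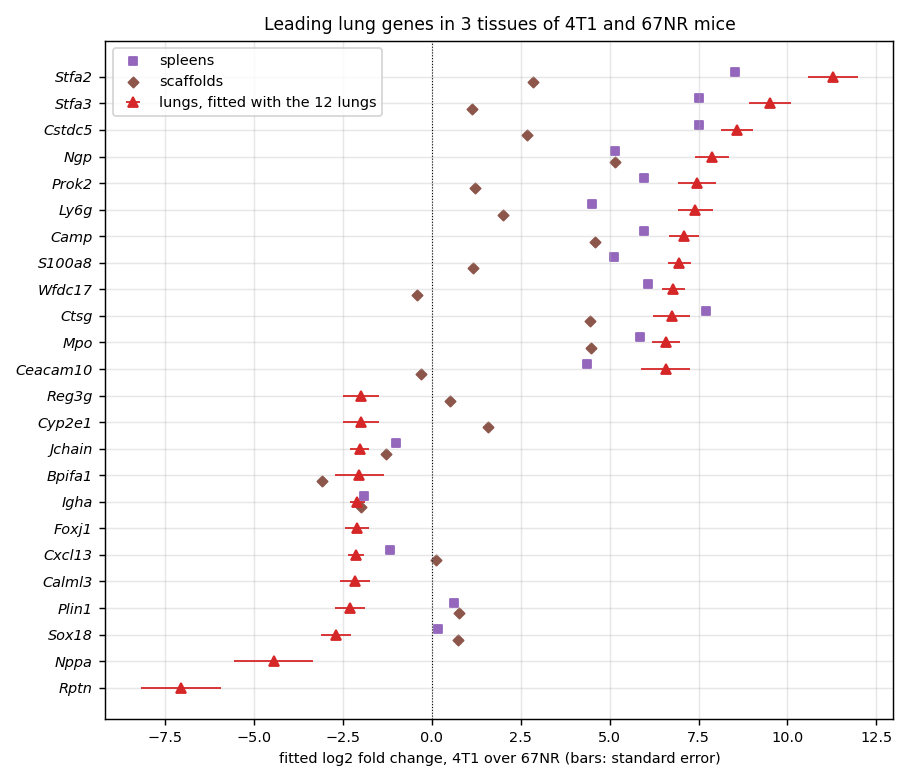
Fitted log2 fold change (4T1 over 67NR) of the 24 leading lung genes in lungs (triangles, bars are standard errors), spleens (squares) and scaffolds (diamonds), where a gene had more than 10 counts. The spleen points follow the lungs for the 12 higher genes, from 4.37 to 8.52, and the scaffold points run from -0.40 to 5.14.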

How the data were processed

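The samples were flash-frozen mouse tissues, and libraries were made with the Lexogen QuantSeq 3' kit, which reads 1 tag per transcript near its 3' end. The authors deposited 1 table of read counts per gene symbol for 45 libraries. Per the submitters' processing notes Trim Galore 0.5.0, STAR 2.6.0 and featureCounts were used. The genome build, the annotation and the handling of molecular identifiers are not given in the sources used here.

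Lines that repeat a symbol were summed (120 of 55487). Genes with more than 10 counts over the 6 compared lungs were tested with edgeR 4.0.16 (R 4.3.3), with TMM scaling and the quasi-likelihood F test, in 1 model of all 12 lungs with 1 term per group, and p-values were adjusted by Benjamini-Hochberg over all genes tested. A gene was called, and is written as having risen or fallen, when its fold change exceeded 2 and its adjusted p was below 0.10, the thresholds of the study. Differences from spleens and scaffolds were contrasts in models of 24 libraries, called when the difference exceeded 1 on the log2 scale with an adjusted p below 0.10. For CPM each count was divided by the total of its library and multiplied by 1000000. TMM factors were not applied to CPM, and overlap of samples was judged on CPM. Group values are mean ± SD with n = 3, fold changes are given ± standard error, and intervals and floors of 3 counts cover counting error only.

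The 12 leading genes in each direction had the largest fold changes among genes called, without overlap of the samples and with at least 5 CPM on average. From each list the 4 genes of lowest p were named, and all 9 signature genes. Other list members were named after their values were seen. One list gene that the rule picked is not reported here. The comparison, its gene lists and its tests were chosen with earlier results of these data known. Alternatives were DESeq2 1.42.0, other scalings and filters, fewer lung groups, counts thinned to 4609634 per library, and leaving out each library. The code was tested on simulated data. No pair of the 45 libraries was identical. Promoters came from RefSeq (GRCm38.p6) and were aligned with Biopython 1.88.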

Additional observations from a re-analysis of the deposited data

Results flagged for a closer look

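For 22 results the 4T1 against 67NR change in lungs differed, by the interaction test in edgeR, from that in another tissue of the same groups. Values are differences of log2 fold changes, lung minus the other tissue. Genes with 3 or fewer counts in the 67NR lungs (Stfa2 and Ceacam10) have fitted values that depend on the prior count of the fit. The leading genes were chosen for large fold changes in lungs, which favors a larger change there than in another tissue, so that the direction of their differences is a description only.

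Against spleens, the differences of 3 leading higher genes passed, S100a8 with 1.78, Ngp with 2.66 and Ly6g with 2.85. The leading lower genes Jchain, Sox18 and Plin1 differed by -1.06, -2.93 and -2.97. Plin1 was near the floor in spleens, and the lowest library of each group held fewer than 3 counts. The signature gene Fhl1, which was not called in lungs (-0.13), had a log2 fold change of 1.13 in spleens and differed by -1.31.

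Against scaffolds, 8 leading higher genes passed. The differences were 8.43 for Stfa2, 8.38 for Stfa3, 7.20 for Wfdc17, 6.88 for Ceacam10, 6.25 for Prok2, 5.93 for Cstdc5, 5.81 for S100a8 and 5.42 for Ly6g. The leading lower genes differed by -2.23 (Cxcl13), -3.42 (Sox18), -3.04 (Plin1), -2.49 (Reg3g) and -3.57 (Cyp2e1). Of the signature genes, Ifitm1 differed by 1.36 and Slc1a3 by -1.10. Why these tissues differed was not tested.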

How the results depend on the processing

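Of 1763 recomputed values of 113 named genes, 1652 kept their direction and side of the thresholds, 100 were no longer called and 11 turned in sign, all to values not called. Without both 67NR lungs 14 and 15 these were, on the log2 scale, Acta1 at 1.75, Sln at 0.0965 and Tnnt3 at 0.58, and the signature genes Dusp12 at 0.0923 and Fhl1 at 0.14. Signature genes that were not called in any case also turned when 1 lung was left out: Dusp12 ranged from -0.161 to 0.0036, Fhl1 from -0.239 to 0.0127, Ndufs1 from -0.0152 to 0.156 and Pja2 from -0.102 to 0.0419. Ndufs1 turned to -0.0354 without TMM as well. Leaving out both 67NR lungs 14 and 15, a setting chosen after seeing the data, called 484 genes, 413 higher and 71 lower. A lone 67NR lung was then assumed to vary like the other groups, and 411 of the 484 were among the 1118. With at least 10 counts in each of the 6 libraries, 576 genes were called, 395 higher and 181 lower, and this filter removes genes near 0 in 1 group. DESeq2 called 260 lower genes (881 in all, 867 of them shared), and library totals without TMM gave 634 lower genes. Leaving out 1 lung at a time gave 706 to 1288 genes, 522 to 809 higher and 136 to 494 lower. The difference from scaffolds, 863 genes, ranged from 441 to 1345 when 1 library was left out, and that from spleens, 3752 genes, did not move by over 1.5 times. The 4T1 tumor gene sum differed by 1.28 CPM between the lungs, by 0.349 CPM with genes of at least 50 CPM in tumors, and by 0 CPM with the single gene lacking counts in control tissues. Other causes of these shifts were not tested. No paired analysis was possible because the groups share no replicate number. With 3 lungs a group, the smallest exact p is 0.1, and below 3 counts per library levels are not resolved.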
